A study of Homo sapiens with 7 samples.

Results

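The genes described here are 37 transcripts of the integrated stress response and of protein synthesis, chosen as a list of symbols: 25 genes of the response itself and 12 cytosolic aminoacyl-tRNA synthetases. All 37 were found among the 23710 genes of the table. They were measured by RNA sequencing in SNU398, an established human hepatocellular carcinoma line, in 4 libraries, 1 for each peptide. Cells of every library had received a peptide at 30 µM for 8 hours, so no library came from untreated cells. PEN is penetratin, a cell-penetrating carrier. As the study is known, PEN-WT joins the carrier to the stretch of the transcription factor SALL4 that binds RBBP4. PEN-MUT, its control, has that stretch mutated, and PEN-FFW has a version engineered from it. The comparisons ask whether transcripts of this stress pathway differ between cells given SALL4-derived peptides and cells given the carrier or the mutated peptide.

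In the integrated stress response, kinases that sense amino acid shortage, misfolded protein, viral RNA or heme deficiency phosphorylate the initiation factor eIF2. General translation then drops while the mRNA of the transcription factor ATF4 is translated more efficiently. ATF4 pairs with C/EBP proteins to switch on genes for amino acid synthesis and import, for tRNA charging and, when the stress lasts, for growth arrest and cell death. ATF4 is controlled largely at translation, so its mRNA level does not report its activity.

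Reads in genes above the table's floor numbered 27347377 (PEN-FFW) to 40717633 (PEN-WT) per library. Values are normalized counts, which are reads scaled by 1 factor per library. Differences between 2 libraries are taken on the scale log2(normalized count + 10) and given relative to the median of the 12578 tested genes, those whose mean over the 4 libraries reached 50. This reference matters for PEN-FFW, whose median tested gene lay 0.27 below PEN, 0.30 below PEN-MUT and 0.30 below PEN-WT on the log2 scale as deposited. A PEN-FFW difference from PEN is thus 0.27 lower as deposited than as printed here, which turns the sign of the small positive ones. Each ± is a counting standard error of the 2 libraries, and intervals are 95% counting intervals. With 1 library per peptide there is no replicate error and no test. A member counts as higher or lower here when its log2 difference is at least 0.32, a ratio of 5 to 4, from the median tested gene.

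The line was checked against liver markers. GPC3 had 998 to 1281 normalized counts and ALB 83.1 to 157, AFP had 11 at most, and TTR, SERPINA1, TF and FGB were at the floor of 5 in every library, so several defining hepatocyte genes were not detected above the floor. In such bulk libraries, fewer cells of a type and less RNA per cell cannot be told apart. Of 5 fibroblast markers, LUM (10807 to 17486) and DCN (1355 to 2153) were abundant, and the summed level of that list, mostly LUM, ranged from 12405 in PEN-FFW to 19825 in PEN-MUT. COL1A1 went from 127 in PEN to 221 in PEN-FFW, a difference of 1.02 ± 0.14, while COL1A2 was low (17.9 to 30.0) and PDGFRB was at the floor in every library but PEN. All 4 endothelial markers were at the floor, as were CD3E and CD14 among the leukocyte markers. PTPRC (298 to 373) and CD68 (224 to 283) of that list were detected in every library and made up its summed level of 523 to 656. The summed level as deposited of 4 nuclear RNAs (MALAT1, NEAT1, KCNQ1OT1 and MEG3) was highest in PEN-FFW (66477 normalized counts, against 50362 in PEN, 40321 in PEN-MUT and 51289 in PEN-WT). This sum was mostly MALAT1 (60477 in PEN-FFW), and MEG3 was low (9.0 to 13.8). The sum hides larger differences of PEN-FFW from PEN in NEAT1 (1098 in PEN and 1939 in PEN-FFW, 1.08 ± 0.05) and KCNQ1OT1 (1538 and 4047, 1.66 ± 0.04). The part of these marker levels in the differences below was not tested.

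Of the 37 members, 33 were tested: 21 stress response genes and all 12 synthetases. The other 4 were low. FGF21, a secreted metabolic hormone, and NUPR1, a stress-induced chromatin protein, were at the floor in every library. CTH, which makes cysteine from cystathionine, had 38.6 normalized counts with PEN, 45.0 with PEN-MUT, 51.2 with PEN-WT and 49.9 with PEN-FFW. GDF15, a secreted stress cytokine, had 35.3, 29.0, 28.7 and 23.1 in the same order. These values are too low for a difference to be read from them.

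Members differ in whether their promoter holds the C/EBP-ATF response element, the DNA site that ATF4 dimers recognise. The letters TGATGNAA (or TTNCATCA, the same site read on the other strand) were searched in RefSeq windows running from 250 bases before to 50 bases after each annotated start (GRCh38.p14). Of the 37 members, 34 had a window (NUPR1, LARS and YARS did not), and 15 of the 34 (44.1%) held the letters in at least 1 window, against 4.46% of all genes and 3.62% of all windows. They were ATF3, CHAC1, ASNS, SLC3A2, CEBPG, JDP2, SLC7A1 and FGF21 among 24 stress response genes, and AARS, CARS, GARS, IARS, MARS, NARS and TARS among 10 synthetases. The members were listed as genes of this response and of tRNA charging, so their share describes the list and is not a result of these libraries. DDIT4, VLDLR, SESN2 and TRIB3, which differed from PEN past the threshold in at least 1 comparison, did not hold the letters. Other windows of ATF3, JDP2, ASNS, GARS, SLC3A2, CEBPG, CARS and TARS did not hold them either. The matches below show the element in ATF3, CHAC1 and JDP2, which also passed the threshold, and in the enzyme gene ASNS. Further matches are from FGF21, which was at the floor, and from synthetases at the upper and lower end of the range. Each is written 5′ to 3′ in the direction of its gene, with the element in capitals and up to 30 bases on each side, cut at the start of transcription.
ATF3 (chr1:212565186-212565253, plus strand, element beginning 191 bases upstream of the start): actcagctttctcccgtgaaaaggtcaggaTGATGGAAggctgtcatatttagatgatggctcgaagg
CHAC1 (chr15:40953232-40953299, plus strand, 209 bases upstream): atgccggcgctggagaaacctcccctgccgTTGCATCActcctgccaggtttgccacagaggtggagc
JDP2 (chr14:75427976-75428021, plus strand, 16 bases upstream): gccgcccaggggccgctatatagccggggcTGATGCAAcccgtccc
ASNS (chr7:97872439-97872506, minus strand, 68 bases upstream): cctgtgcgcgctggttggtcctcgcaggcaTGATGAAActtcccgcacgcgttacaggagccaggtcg
FGF21 (chr19:48755440-48755507, plus strand, 54 bases upstream): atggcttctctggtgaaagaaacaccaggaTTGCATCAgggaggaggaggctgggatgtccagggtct
AARS (chr16:70289656-70289723, minus strand, 187 bases upstream): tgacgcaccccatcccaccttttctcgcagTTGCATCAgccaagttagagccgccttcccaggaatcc
GARS (chr7:30594815-30594877, plus strand, 33 bases upstream): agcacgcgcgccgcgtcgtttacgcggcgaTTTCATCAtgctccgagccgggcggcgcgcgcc
IARS (chr9:92293698-92293740, minus strand, 13 bases upstream): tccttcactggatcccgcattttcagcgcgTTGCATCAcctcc

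Members with and without these letters overlapped in their differences. In PEN-WT against PEN the 14 tested members with the element had a median difference of 0.06 (from -0.12 to 0.54) and the 17 without it 0.08 (from -0.09 to 0.83). In PEN-FFW against PEN the medians were -0.06 (from -0.26 to 0.28) and 0.01 (from -0.44 to 0.68). A match is only a run of letters in this window, and elements farther away or in introns were not searched.

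The members were described by the library that held their highest or lowest value. PEN-WT held the highest value for 18 of the 33 tested members, relative to the median gene, where 14.9% of all tested genes had it highest, and for none of them the lowest. Of the 18, 14 were stress response genes (of 21) and 4 synthetases (of 12). For 8 of the 18 the PEN-WT value was above each of the other 3 libraries beyond the counting intervals, which 2.85% of all tested genes were: ATF3, CHAC1, SESN2, DDIT4, SLC7A5, CEBPB, AARS and CARS. This rule is met more often by abundant genes. Of these 8, 3 were among the 22 members in the upper 4 of 20 bins of abundance, where 5.41% of all genes met it. PEN-FFW held the lowest value for 18 members as well, 8 stress response genes and 10 synthetases, beside 35.4% of all tested genes. ASNS, PSAT1, CEBPG, GARS and MARS were both highest in PEN-WT and lowest in PEN-FFW. PEN-FFW lay below each of the other 3 libraries beyond the counting intervals for 15 members, beside 15.6% of all tested genes. Of these 15, 14 were among the 22 members in the upper 4 of 20 bins of abundance, where 43.3% of all genes met the same rule.

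**Figure D1:**
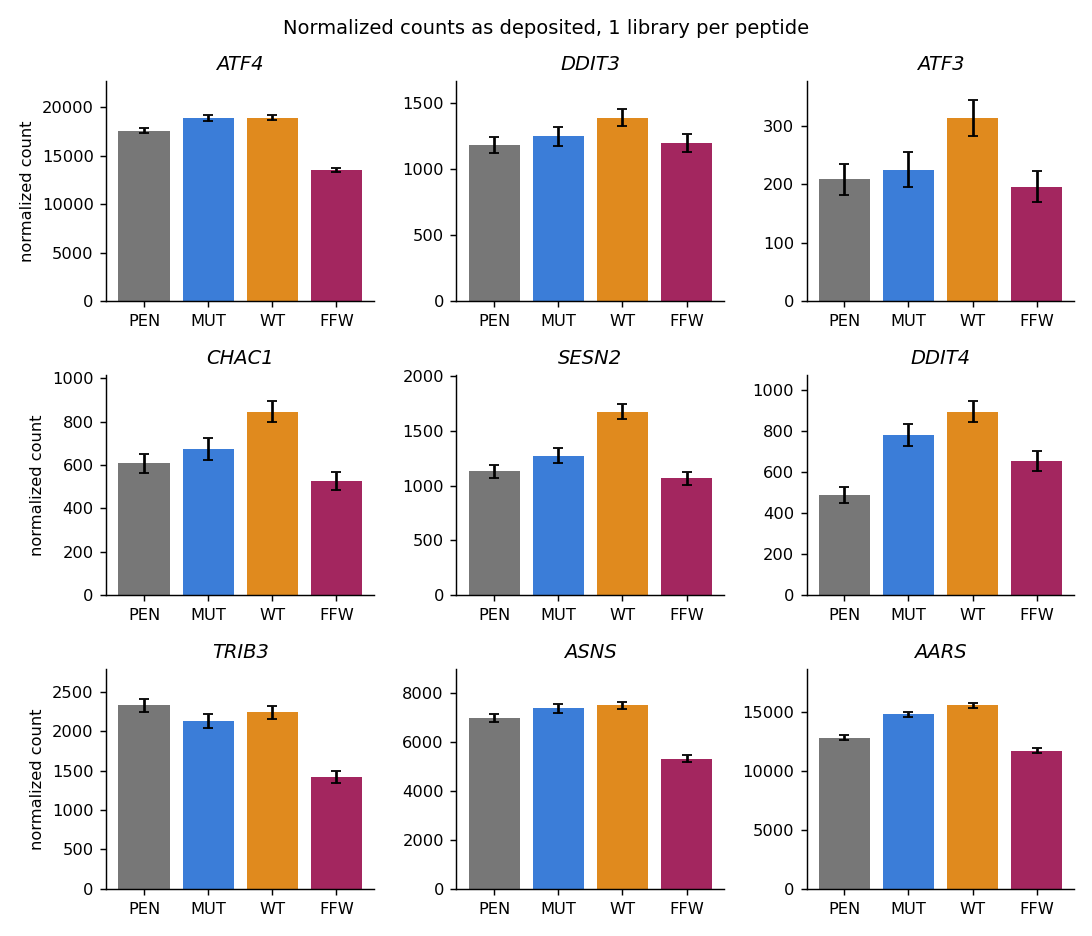
Normalized counts as deposited (vertical axes, each from 0) of 9 members in the libraries of PEN, PEN-MUT (MUT), PEN-WT (WT) and PEN-FFW (FFW), 1 library each; bars are the values and whiskers 95% counting intervals. All members shown but TRIB3 stand highest in PEN-WT, ATF4 by little. DDIT4 and DDIT3 are lowest in PEN, and the others, ATF3, CHAC1 and SESN2 among them, are lowest in PEN-FFW. As deposited, the median gene is lower in PEN-FFW too.

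Among the transcription factors, ATF4 itself was abundant and nearly level. The gene (chromosome 22, 39915700 to 39918688, plus strand, GRCh37) had 17545 normalized counts with PEN, 18862 with PEN-MUT, 18885 with PEN-WT and 13518 with PEN-FFW. Only PEN-FFW stands apart in these counts. Relative to the median gene ATF4 was at 0.08 ± 0.01 in both PEN-MUT and PEN-WT and at -0.11 ± 0.02 in PEN-FFW, each against PEN. Relative to genes of the same abundance, a reference added after the data were seen, the PEN-FFW difference was 0.06. Per kilobase of its transcript, at 12123 mean normalized counts, it was the most abundant member, against 121 for ATF3.

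ATF3, a factor that ATF4 induces and that represses or activates depending on its partner, had the clearest PEN-WT difference of this group. It lies on chromosome 1 (212738676 to 212794119, plus strand, GRCh37). Its normalized counts were 208 with PEN, 225 with PEN-MUT, 314 with PEN-WT and 196 with PEN-FFW. The PEN-WT library was higher than the other 3, which lay close together. The PEN-WT difference was 0.54 ± 0.11 against PEN and 0.46 ± 0.12 against PEN-MUT. For PEN-FFW these were 0.18 ± 0.13 and 0.11 ± 0.13, intervals that include 0, and the first was -0.09 as deposited.

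DDIT3, or CHOP, the factor that links prolonged stress to cell death, was not highest in PEN-WT once the reference was applied. Its normalized counts were 1182 with PEN, 1245 with PEN-MUT, 1386 with PEN-WT and 1196 with PEN-FFW. Against PEN it was at 0.20 ± 0.05 in PEN-WT and 0.29 ± 0.06 in PEN-FFW, and at 0.05 ± 0.06 in PEN-MUT. As deposited, PEN-FFW and PEN differed by only 0.02, so the PEN-FFW value rests on the reference. DDIT3 (chromosome 12, 57910371 to 57915520, minus strand, GRCh37) overlaps MARS by 982 and MBD6 by 1028 bases on the opposite strand. It also overlaps another annotated protein-coding gene on its own strand by 2769 bases. The strand setting of the counting is not given in the sources used here, so reads of the overlaps cannot be told apart.

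CEBPB, a partner of ATF4, had 704 normalized counts with PEN, 713 with PEN-MUT, 880 with PEN-WT and 605 with PEN-FFW, and stood at 0.29 ± 0.06 in PEN-WT against PEN, with -0.00 ± 0.07 in PEN-MUT and 0.05 ± 0.07 in PEN-FFW. CEBPG, another partner, was nearly level (3693, 3689, 3856 and 2872 normalized counts, differences from PEN of -0.02, 0.03 and -0.09). JDP2, an AP-1 repressor related to ATF3, was lowest in PEN. Its gene had 474 normalized counts with PEN, 610 with PEN-MUT, 623 with PEN-WT and 478 with PEN-FFW. The differences from PEN were 0.33 ± 0.08 (PEN-MUT), 0.35 ± 0.08 (PEN-WT) and 0.28 ± 0.09 (PEN-FFW), although the last was 0.01 as deposited. PEN-MUT and PEN-WT did not differ detectably (0.03, interval -0.12 to 0.18).

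The feedback and stress regulators held the largest differences. DDIT4 encodes REDD1, which restrains the growth kinase mTORC1, and lies on chromosome 10 (74033678 to 74035794, plus strand, GRCh37). It had 489 normalized counts with PEN, 782 with PEN-MUT, 896 with PEN-WT and 654 with PEN-FFW. PEN was the low library. Differences from it were 0.65 ± 0.08 (PEN-MUT), 0.83 ± 0.07 (PEN-WT) and 0.68 ± 0.08 (PEN-FFW, 0.41 as deposited). These values share the PEN library. Against PEN-MUT, DDIT4 was at 0.19 ± 0.07 in PEN-WT and 0.04 ± 0.07 in PEN-FFW.

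SESN2, sestrin 2, a leucine sensor that also holds back mTORC1, had 1132 normalized counts with PEN, 1274 with PEN-MUT, 1676 with PEN-WT and 1066 with PEN-FFW (chromosome 1, 28586029 to 28609002, plus strand, GRCh37). PEN-WT stood above the other 3. Its differences were 0.53 ± 0.05 from PEN and 0.39 ± 0.05 from PEN-MUT, and PEN-FFW was at 0.18 ± 0.06 from PEN (-0.09 as deposited) and 0.04 ± 0.06 from PEN-MUT. CHAC1, which breaks down glutathione, had 609, 676, 847 and 526 normalized counts in the same order (chromosome 15, 41245160 to 41248710, plus strand, GRCh37). PEN-WT was again the high library, at 0.44 ± 0.07 from PEN and 0.32 ± 0.07 from PEN-MUT. Its PEN-FFW value was 0.06 ± 0.08 from PEN and -0.06 ± 0.08 from PEN-MUT.

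TRIB3, a pseudokinase that ATF4 induces and that dampens ATF4 in return, was set apart in PEN-FFW instead. Its normalized counts were 2329 with PEN, 2134 with PEN-MUT, 2240 with PEN-WT and 1419 with PEN-FFW. PEN-FFW was the low library, at -0.44 ± 0.05 against PEN and -0.29 ± 0.05 against PEN-MUT, while PEN-WT was at -0.09 ± 0.04 against PEN. TRIB3 was lower in PEN-FFW than in PEN under every scaling and filter tried, from -0.71 as deposited to -0.38 with library totals. PPP1R15A, or GADD34, the phosphatase subunit that reverses eIF2 phosphorylation, had 1012, 1007, 1164 and 877 normalized counts and its differences from PEN were -0.03 ± 0.06, 0.17 ± 0.06 and 0.07 ± 0.06.

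The enzymes of amino acid synthesis, which are among the best known ATF4 targets, did not follow ATF3, SESN2 and CHAC1. ASNS, asparagine synthetase, had 6974 normalized counts with PEN, 7363 with PEN-MUT, 7491 with PEN-WT and 5318 with PEN-FFW. PEN, PEN-MUT and PEN-WT lay close together, and the differences from PEN were 0.06 ± 0.02, 0.07 ± 0.02 and -0.12 ± 0.02. PSAT1 (7038, 7375, 7502 and 5418 normalized counts) and PHGDH (8858, 9394, 9580 and 7456), enzymes of serine synthesis, were at 0.06 and 0.08 in PEN-WT and at -0.11 and 0.02 in PEN-FFW. MTHFD2, the mitochondrial folate enzyme, was level in PEN-WT (-0.01 ± 0.02) and at -0.30 ± 0.03 in PEN-FFW, with 6192, 6078, 6288 and 4177 normalized counts.

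Among transport genes, the importers of large neutral and of cationic amino acids were lowest in PEN-MUT relative to the median gene, although lowest in PEN-FFW as deposited. SLC7A5 had 6592 normalized counts with PEN, 5859 with PEN-MUT, 7277 with PEN-WT and 5494 with PEN-FFW, and SLC7A1 had 4688, 4124, 4963 and 4082. Relative to the median gene SLC7A5 was at -0.19 ± 0.02 and SLC7A1 at -0.21 ± 0.03 in PEN-MUT against PEN. Against PEN-MUT they stood at 0.31 ± 0.02 and 0.27 ± 0.03 in PEN-WT, and at 0.21 ± 0.03 and 0.28 ± 0.03 in PEN-FFW, which were -0.09 and -0.01 as deposited. SLC3A2, the heavy chain that SLC7A5 needs, did not share this (-0.00 ± 0.02 in PEN-MUT and -0.06 ± 0.02 in PEN-WT against PEN). XPOT, which exports tRNA from the nucleus, was at -0.07 ± 0.02 in PEN-WT and -0.28 ± 0.02 in PEN-FFW against PEN.

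VLDLR, a lipoprotein receptor that ATF4 induces, resembled DDIT4. It had 118 normalized counts with PEN, 168 with PEN-MUT, 203 with PEN-WT and 149 with PEN-FFW, and the differences from PEN were 0.45 ± 0.15, 0.70 ± 0.14 and 0.58 ± 0.15, the last being 0.31 as deposited and then short of the threshold. PEN was the low library. The interval of PEN-WT against PEN-MUT (-0.01 to 0.52) includes 0. STC2, a secreted glycoprotein, had 683, 693, 809 and 608 normalized counts and differed from PEN by 0.00 ± 0.07, 0.21 ± 0.07 and 0.11 ± 0.07.

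**Figure D2:**
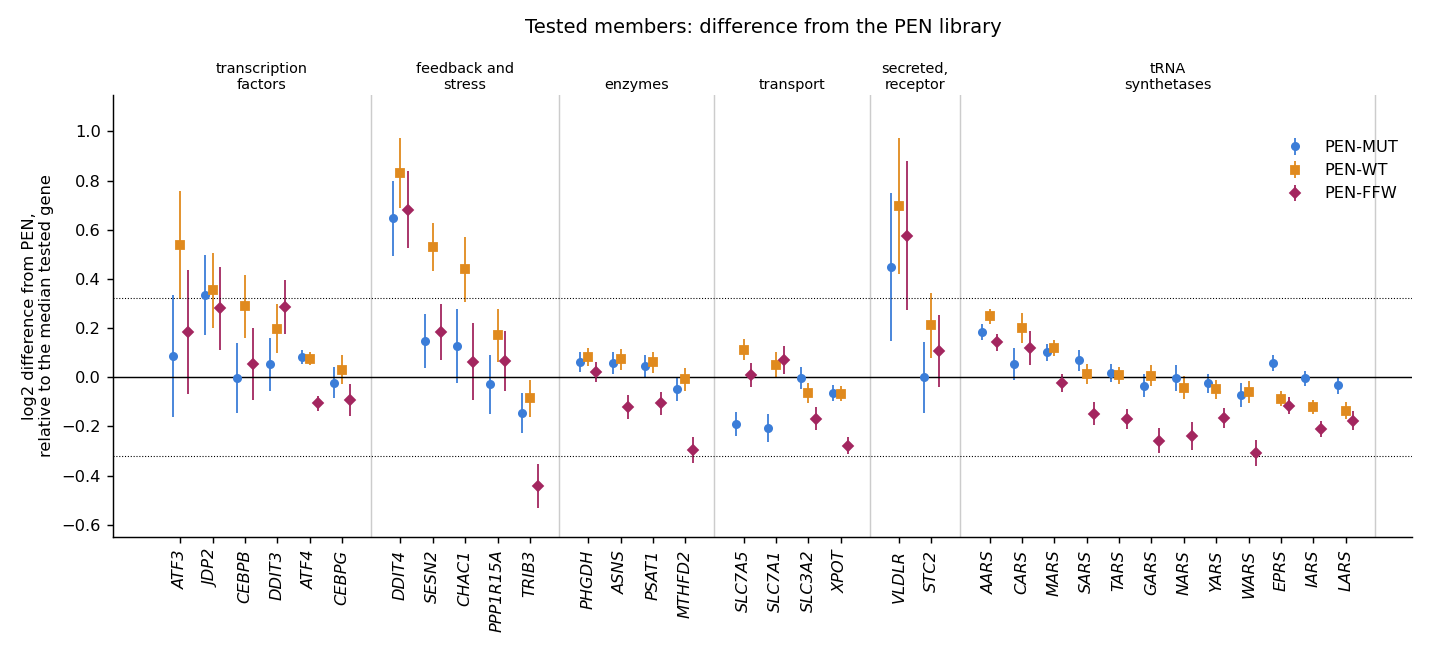
The 33 tested members, grouped by role, with their log2 difference from PEN after subtraction of the median tested gene (vertical axis). Circles stand for PEN-MUT, squares for PEN-WT, diamonds for PEN-FFW, bars for 95% counting intervals and dotted lines for log2 differences of 0.32 either way. PEN-WT lies above the upper line for DDIT4, VLDLR, ATF3, SESN2, CHAC1 and JDP2, and TRIB3 is the only member under the lower line, in PEN-FFW.

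The 12 synthetases, which charge tRNAs with amino acids, were abundant and close together. The highest relative to PEN was AARS, the alanine enzyme, with 12827 normalized counts with PEN, 14792 with PEN-MUT, 15567 with PEN-WT and 11737 with PEN-FFW (chromosome 16, 70285886 to 70323610, minus strand, GRCh37). Relative to the median gene it was above PEN by 0.18 ± 0.02 (PEN-MUT), 0.25 ± 0.02 (PEN-WT) and 0.14 ± 0.02 (PEN-FFW), the highest synthetase in each, although as deposited PEN-FFW was at -0.13. CARS, the cysteine enzyme, followed in PEN-WT at 0.20 ± 0.03 (3194, 3365, 3747 and 2875 normalized counts), then MARS, the methionine enzyme, at 0.12 ± 0.02 (12029, 13098, 13346 and 9804). The lowest in PEN-WT was LARS, the leucine enzyme, at -0.14 ± 0.02, with 11699 normalized counts with PEN, 11607 with PEN-MUT, 10877 with PEN-WT and 8582 with PEN-FFW. IARS (isoleucine) was at -0.12 ± 0.01 and EPRS (glutamate and proline) at -0.09 ± 0.02, with 15972 and 12800 normalized counts in PEN-WT against 17006 and 13305 in PEN. LARS, IARS and EPRS belong to the large multi-synthetase complex, as does MARS, which was on the other side. The other six, SARS, TARS, GARS, NARS, YARS and WARS, lay between -0.06 and 0.01.

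In PEN-FFW all synthetases but AARS and CARS were below PEN relative to the median gene. WARS, the tryptophan enzyme, was lowest, with 6545 normalized counts with PEN, 6320 with PEN-MUT, 6421 with PEN-WT and 4380 with PEN-FFW, a difference of -0.31 ± 0.03. GARS, the glycine enzyme, was at -0.26 ± 0.03 (6754, 6697, 6932 and 4683 normalized counts) and NARS, the asparagine enzyme, at -0.24 ± 0.03 (5585, 5656, 5542 and 3923). TARS, SARS and YARS, for threonine, serine and tyrosine, were between -0.17 and -0.15. These genes are abundant, and abundant genes were lower in PEN-FFW in general: the 2516 tested genes in the upper 4 of 20 bins of abundance had a median difference of -0.11 from PEN, and 22 of the 33 tested members were among them. Relative to genes of the same abundance, the synthetase median in PEN-FFW went from -0.17 to -0.0050.

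**Figure D3:**
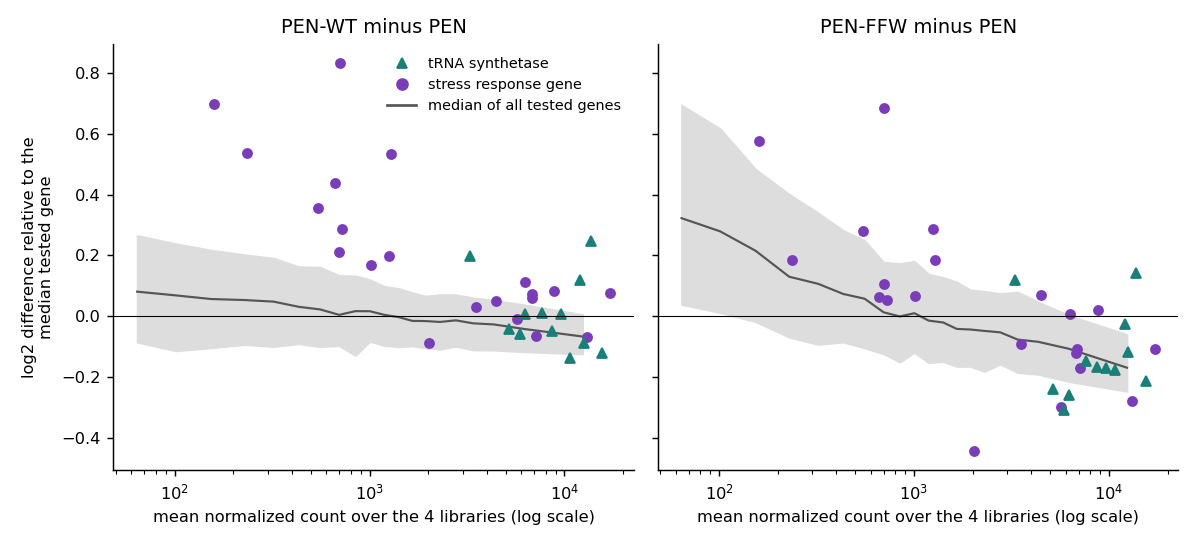
Log2 difference from PEN, with the median tested gene set to 0 (vertical axis), against the mean normalized count over the 4 libraries (horizontal log axis) for PEN-WT (left) and PEN-FFW (right); triangles are the 12 synthetases and circles the 21 tested stress response genes, the line is the median of all tested genes in 20 bins and the band runs from the lower to the upper quartile. In PEN-FFW the line falls to -0.17 in the most abundant bin, where several synthetases lie. In PEN-WT the members highest against PEN (DDIT4, VLDLR, ATF3, SESN2 and CHAC1) lie above the band.

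Counted by comparison, most members were within the threshold of 0.32. In PEN-MUT against PEN, 3 of the 33 tested members were higher (DDIT4, VLDLR and JDP2; 2.26% of all tested genes were) and 0 lower (3.14%). PEN-WT against PEN gave 6 higher (DDIT4, VLDLR, ATF3, SESN2, CHAC1 and JDP2), where 5.93% of tested genes were higher, and 0 lower (3.53%). For PEN-FFW against PEN the counts were 2 higher (DDIT4 and VLDLR), below the background of 17.0%, and 1 lower (TRIB3), against 5.67%. DDIT4 and VLDLR were thus higher than PEN with PEN-MUT, PEN-WT and PEN-FFW alike, comparisons that share the PEN library.

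Against the mutated peptide, the counts were smaller. PEN-WT had 2 members higher than PEN-MUT (ATF3 and SESN2, with CHAC1 just short of the threshold), where 5.57% of tested genes were higher, and 0 lower (0.596%). The 2 members are a share close to that background. PEN-FFW had 0 higher than PEN-MUT (16.5% of tested genes) and 0 lower (2.49%). As a whole the 21 tested stress response genes had a median difference of 0.11 in PEN-WT against PEN and 0.15 against PEN-MUT, with 17 and 20 of the 21 above the median gene, whose difference is 0 by definition. The 12 synthetases had medians of -0.02 and -0.01, with 6 of 12 above the median gene each time.

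PEN-MUT against PEN gave medians of 0.05 for the stress response genes and 0.01 for the synthetases. In PEN-FFW the stress response genes were at a median of 0.05 against PEN and -0.03 against PEN-MUT, and the first of these went to -0.04 against genes of equal GC content and to -0.22 as deposited. The synthetase medians were -0.17 against both PEN and PEN-MUT.

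Of the 6 pairs of peptides, all matched in dose and time, PEN-FFW and PEN-WT is the pair that sets the engineered against the natural SALL4 stretch. PEN-FFW was lower for 26 of the 33 tested members beyond the counting interval (23.6% of all tested genes) and higher for 0 (24.5%), with 7 intervals that include 0. Of the 22 abundant members, 20 were lower by this rule, where 53.9% of the 2516 genes of those bins were. Past the threshold, 4 members were lower in PEN-FFW, CHAC1, TRIB3, ATF3 and SESN2, against 1.29% of all tested genes, and 0 were higher (11.2%). CHAC1 differed by -0.38 (interval -0.52 to -0.23), TRIB3 by -0.35 (-0.44 to -0.27), ATF3 by -0.35 (-0.58 to -0.12) and SESN2 by -0.35 (-0.45 to -0.24). With a filter of 500 normalized counts, 2 members were lower. ATF3 lies below that filter, and another of the 4 fell short of the threshold once the median gene was taken from the genes that pass it. MTHFD2 (-0.29, -0.34 to -0.24), GARS (-0.26, -0.31 to -0.21) and WARS (-0.25, -0.30 to -0.20) came next. The counting interval included 0 for DDIT3 (0.09, interval -0.01 to 0.19), SLC7A1 (0.02, -0.04 to 0.08), EPRS (-0.03, -0.06 to 0.01), JDP2 (-0.07, -0.23 to 0.08), VLDLR (-0.12, -0.39 to 0.15), PPP1R15A (-0.10, -0.22 to 0.01) and STC2 (-0.10, -0.24 to 0.03). The median was -0.15 for stress response genes and -0.13 for synthetases. Relative to genes of the same abundance these medians were -0.11 and -0.05.

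**Figure D4:**
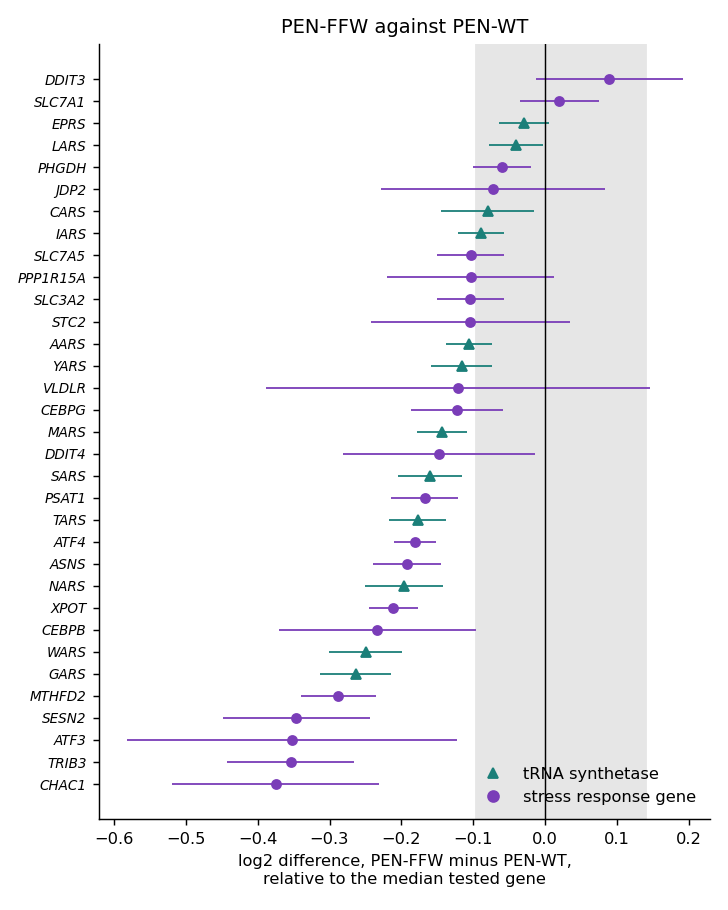
Log2 difference of PEN-FFW minus PEN-WT relative to the median tested gene (horizontal axis) for the 33 tested members, ordered by value, with synthetases as triangles and stress response genes as circles; bars are 95% counting intervals and the band spans the quartiles of all tested genes (-0.10 to 0.14). CHAC1, TRIB3, ATF3 and SESN2 lie lowest, and only DDIT3 and SLC7A1 lie above 0.

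Other genes of the pathway were compared through further lists. Of 22 tested genes known as further ATF4 targets, 4 were higher than PEN past the same threshold in PEN-WT (5.93% of all tested genes were) and 0 lower (3.53%). In PEN-FFW 3 were higher (17.0% of all tested genes) and 2 lower (5.67%), and in PEN-MUT 2 were higher (2.26%) and 1 lower (3.14%). The glycine transporter gene SLC6A9 had 312 normalized counts with PEN, 377 with PEN-MUT, 498 with PEN-WT and 399 with PEN-FFW, with differences from PEN of 0.24 ± 0.10, 0.63 ± 0.09 and 0.61 ± 0.10. KLHL24, a ubiquitin ligase adaptor, was at 0.32 ± 0.06, 0.44 ± 0.05 and 0.37 ± 0.06, and BBC3, the pro-apoptotic PUMA, at 0.44 ± 0.16, 0.42 ± 0.15 and 0.12 ± 0.17. The median of this list was 0.05 in PEN-WT and -0.05 in PEN-FFW.

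The upstream machinery held no gene past the threshold on the higher side. Among 15 genes for the eIF2 kinases, eIF2 and its exchange factor eIF2B, 0 were higher than PEN in PEN-MUT, PEN-WT or PEN-FFW (2.26%, 5.93% and 17.0% of all tested genes were). In PEN-FFW 3 were lower (5.67% of all tested genes were): EIF2S3 (-0.41 ± 0.03), EIF2S1 (-0.40 ± 0.02) and EIF2B3 (-0.38 ± 0.06). Their PEN-WT differences were -0.18 ± 0.02, -0.22 ± 0.02 and -0.14 ± 0.05. The 11 cytosolic synthetases and scaffold genes outside the member list were all below the median gene in PEN-WT and in PEN-FFW against PEN, with medians of -0.16 and -0.23, beside -0.02 and -0.17 for the 12 members. FARSB (phenylalanine), RARS (arginine) and DARS (aspartate) were lowest, at -0.20 ± 0.03, -0.22 ± 0.02 and -0.26 ± 0.03 in PEN-WT and -0.38 ± 0.03, -0.37 ± 0.03 and -0.35 ± 0.03 in PEN-FFW. Abundant genes were lower in PEN-FFW in general, with a median of -0.11 from PEN in the upper 4 of 20 bins of abundance. No list outside the members was compared with genes of the same abundance.

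Mitochondrial synthetases, 17 in all, had medians of -0.0047 in PEN-WT and -0.07 in PEN-FFW. MARS2 was at -0.48 ± 0.06 and -0.40 ± 0.07, and AARS2 at 0.11 ± 0.03 and 0.34 ± 0.04. In the chaperone arm of the unfolded protein response, 16 of 20 genes lay under the median gene in PEN-WT, at a median of -0.09, with HSPA5, the main chaperone of the endoplasmic reticulum, at -0.33 ± 0.02. The ubiquitin ligase gene SYVN1 (0.33 ± 0.06) and the stress sensor gene ERN1 (0.16 ± 0.09) were above it. In PEN-FFW the median was -0.04 and HSPA5 was at -0.14 ± 0.02. SYVN1 (0.53 ± 0.06) and ERN1 (0.33 ± 0.09) were the 2 genes past the threshold there, both higher, where 17.0% of all tested genes were higher. Of 7 tested genes for mitochondrial chaperones, proteases and stress relay, 0 were higher (5.93% of all tested genes) and 0 lower (3.53%) in PEN-WT. In PEN-FFW 1 was lower (5.67% of all tested genes), HSPE1 (-0.49 ± 0.04), with HSPD1 at -0.31 ± 0.01 and HSPA9 at -0.22 ± 0.01.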

How the data were processed

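The submitters' processing notes name the build hg19 and the tools STAR 2.4.0i, an aligner, and featureCounts 1.5.0-p1, a read counter. The authors deposited log2 values for 23710 genes in 4 RNA libraries; for the annotation, strand setting and normalization method, nothing is given in the sources used here. The 3 chromatin samples are not analysed here. With the log undone, 100% of values above the floor (5 normalized counts) came out as whole reads, within 0.1 read, on dividing by the library's step; this gave the reads and the Poisson counting errors, which cover counting only.

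Members, lists and thresholds were chosen with earlier results of these data known. Values in every library were due for 7 core members, for members past the threshold against PEN or PEN-MUT and for the extreme synthetases; other members were named besides. Genes named outside the members were the 3 farthest from PEN in PEN-WT or PEN-FFW of each list, except where a gene is not reported here. Members were positioned with GENCODE 44 lifted to GRCh37, by symbol or RefSeq synonym. The annotation marks 16 members as overlapped on the opposite strand. It marks 6 as overlapped by another protein-coding gene, among them MARS (by 13370 bases) and MTHFD2 (by 5962). Calculations used Python 3.11.15 with pandas 2.3.3 and were tested on simulated data. Alternatives changed scaling, pseudocount, filter, reference and threshold. With 1 library per peptide no test was made.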

Additional observations from a re-analysis of the deposited data

How the results depend on the processing

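No paired analysis was possible because each peptide had 1 library, and no replicate could be left out. Of 180 medians and counts recomputed under 8 alternatives, 139 kept their value within the counting interval or within 1.5 times and 41 moved. Changes of sign were scored only for values of at least 0.32, which no median reached, so none could be scored here. Some medians did change sign, such as the stress response median of PEN-FFW against PEN, from 0.05 to -0.22 as deposited. Of 480 values of named members, 397 kept and 83 moved, and a pseudocount of 1 moved none. With no median gene subtracted, that is with values as deposited, the stress response and synthetase medians were -0.22 and -0.44 for PEN-FFW against PEN (1 member higher, 17 lower), -0.33 and -0.47 against PEN-MUT (22 lower), and -0.45 and -0.43 against PEN-WT (31 lower). As deposited, the median tested gene itself lay at -0.27, -0.30 and -0.30 in these comparisons, near the threshold of 0.32. The share of all tested genes past the threshold was not recomputed for any alternative, so member counts under the alternatives have no background beside them. The synthetase median against PEN and against PEN-MUT in PEN-FFW was -0.11 and -0.13 with library totals, -0.24 and -0.24 with no filter, -0.12 and -0.13 with a filter of 500, and -0.12 and -0.12 relative to genes of like GC content. Library totals gave 4 members higher in PEN-FFW against PEN, 4 in PEN-WT against PEN-MUT and 1 in PEN-FFW against PEN-MUT. With no filter 5 members were lower in PEN-FFW than in PEN, 1 was higher and 1 lower than in PEN-MUT, and the synthetase median against PEN-WT was -0.18. The filter of 500 gave 1 member higher in PEN-FFW than in PEN-MUT and 2 lower than in PEN-WT. Relative to genes of like GC content the stress response median of PEN-FFW against PEN was -0.039, and 1 member was lower than in PEN-MUT. Relative to genes of like abundance, a reference chosen after seeing the data, the synthetase medians were 0.033 (PEN-WT against PEN), 0.054 (PEN-WT against PEN-MUT), -0.0050, -0.012 and -0.047 (PEN-FFW against PEN, PEN-MUT and PEN-WT), and 1 member was higher in PEN-FFW than in PEN-MUT. At 1.5-fold, the members higher than PEN numbered 1 (PEN-MUT), 2 (PEN-WT) and 1 (PEN-FFW), 0 were higher in PEN-WT than in PEN-MUT, and 0 were lower in PEN-FFW than in PEN or PEN-WT; a stricter threshold can only lower these counts. The cause of the other moves was not tested. Depth limits members with few reads, such as VLDLR and ATF3.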
